A study of Mus musculus with 9 samples.

Results

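The 10 genes that Leydig cells use to make androgens, or that mark these cells, were followed at about postnatal day 30 (P30) in testes from mice with and without RFX2. The genes were Star, Cyp11a1, Cyp17a1, Hsd3b1, Hsd3b6, Hsd17b3, Insl3, Lhcgr, Nr5a1 and Fdx1. They were chosen by name for their known role and not by their counts, though with earlier results of these data known. They are 10 of the 23074 genes in the count table, and all 10 were among the 15613 genes with enough counts to be tested.

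RNA-seq was performed on decapsulated testes, that is, testes stripped of their fibrous capsule, of 5 wild type and 4 Rfx2-/- mice, with 1 library per mouse. All mice were 29 to 30 days old and of the same mixed background of the strains C57BL/6, 129/Sv and FVB/N, and no treatment was given. RFX2 is a transcription factor of meiotic and early haploid germ cells. By the methods of the study, 1 exon of Rfx2 was removed in every tissue with a universal Cre strain driven by the actin promoter, so that Leydig cells would lack that exon as well as germ cells, and the mixed background line retained a neomycin cassette. Littermates were used where possible, but the labels do not say which mice these were.

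Leydig cells lie between the seminiferous tubules and are the androgen source of the testis. Luteinizing hormone (LH) acts through its receptor and cAMP to bring cholesterol into mitochondria, where its side chain is removed, and enzymes of the endoplasmic reticulum then convert the product to testosterone. Around puberty the fetal Leydig cells are outnumbered by adult-type cells, which take over testosterone synthesis with their own set of enzyme forms.

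Hsd3b1 and Hsd3b6 are close relatives that lie side by side on chromosome 3 (GRCm38), Hsd3b1 at chr3:98852194-98859794 and Hsd3b6 at chr3:98805504-98814443, both on the minus strand. Since 3 of the 4 knockout libraries lay above every wild type library for Hsd3b1 and below every one for Hsd3b6, the parts of their sequences that tell them apart, and those that do not, are shown first. Their coding sequences, each of 1119 bases without the stop codon, were identical at 1007 bases and differed at 112, an identity of 90%. The most different window of 120 bases lies in coding exon 1, at chr3:98857822-98857941 in Hsd3b1 and chr3:98810904-98811023 in Hsd3b6, and holds 21 differing bases, which are given in capitals.
Hsd3b1, most different: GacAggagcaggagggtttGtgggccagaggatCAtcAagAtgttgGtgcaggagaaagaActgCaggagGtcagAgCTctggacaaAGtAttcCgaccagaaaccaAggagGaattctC
Hsd3b6, most different: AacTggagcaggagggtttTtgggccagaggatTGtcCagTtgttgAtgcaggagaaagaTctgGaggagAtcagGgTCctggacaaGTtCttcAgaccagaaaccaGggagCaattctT
The most alike window lies in coding exon 3, at chr3:98853118-98853237 in Hsd3b1 and chr3:98806426-98806545 in Hsd3b6, and holds 5 differing bases.
Hsd3b1, most alike: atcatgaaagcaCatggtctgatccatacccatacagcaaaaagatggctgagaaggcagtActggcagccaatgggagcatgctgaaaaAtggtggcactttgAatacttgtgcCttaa
Hsd3b6, most alike: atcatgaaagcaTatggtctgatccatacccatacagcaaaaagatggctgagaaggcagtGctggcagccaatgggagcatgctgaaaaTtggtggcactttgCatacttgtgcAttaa
The longest identical run in the coding sequences was 72 bases, longer than a read of 50 bases. Of the 50-base runs in the exons of Hsd3b1, 4.86% were also present in the exons of another gene, 38 of them in Hsd3b6. For Hsd3b6 the share was 16.1%, mostly with Hsd3b2 and Hsd3b3. Most reads from either gene can therefore be assigned, but a read from a shared run has more than 1 position and was discarded by the authors.

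Promoters were found in the RefSeq table (GRCm38.p6) for 7 of the 10 genes, 8 promoters in all, while Star, Cyp17a1 and Nr5a1 had none there. They were searched on both strands, from 250 bases before to 50 bases after the start, for AAGGTCA, the core of the site of NR5A1 (SF-1), the nuclear receptor that Nr5a1 encodes, and for GTTGCC, a core element of RFX sites. Neither motif contains the other. AAGGTCA was present in 0 of the 8 promoters and in 4.72% of all 32851 promoters. GTTGCC was present in 2 of the 8, the promoter of Hsd3b6 and 1 of those of Cyp11a1 (chr9:58014702-58014951), and in 12.5% of all promoters. The 250 bases upstream of each Hsd3b gene are shown because the GTTGCC match was in 1 of the pair only. The match, in capitals, starts 144 bases before the start of Hsd3b6.
Hsd3b6, chr3:98814444-98814693, minus strand: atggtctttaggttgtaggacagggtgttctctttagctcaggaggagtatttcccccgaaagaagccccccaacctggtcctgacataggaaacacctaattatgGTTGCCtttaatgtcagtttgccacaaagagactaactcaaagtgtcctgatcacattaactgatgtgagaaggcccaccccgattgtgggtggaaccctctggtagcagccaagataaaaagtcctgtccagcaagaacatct
Hsd3b1, chr3:98859795-98860044, minus strand: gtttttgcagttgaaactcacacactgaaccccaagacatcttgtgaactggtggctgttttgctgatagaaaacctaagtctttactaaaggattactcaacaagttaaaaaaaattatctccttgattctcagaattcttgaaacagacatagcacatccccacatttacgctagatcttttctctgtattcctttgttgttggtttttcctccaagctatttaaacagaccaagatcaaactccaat
Such a match is a string of letters in a window and not a site of binding.

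Rfx2-/- replicate 1 held 28800855 counts and the other 8 libraries between 13574764 and 15193330. The reads carry no molecular identifiers, so counting error is a lower limit of the error, and the lowest count of any of the 10 genes was 109 (Lhcgr, wild type replicate 2). Counting error was therefore not negligible beside the spread between mice for the genes with the lowest counts or the least spread. Rfx2 itself, the check of the labels, fell from 549 ± 54.4 CPM (SD, n = 5) to 146.0 ± 59.7 CPM (SD, n = 4), where CPM is counts scaled by library total and by TMM factor (edgeR adjusted p = 0.000781). Markers of other cells were measured beside the Leydig genes. Rfx2-/- replicate 2 stood apart, with a summed level of 267.6 CPM for 7 epididymal genes against 0.387 to 4.32 CPM in the other 8 libraries. Crisp1 supplied 224.5 CPM of this sum and Adam7 26.0 CPM, whereas Lcn5, Lcn8 and Cst11 did not exceed 3 counts in any library. In the same library genes with under 2 kb of exons differed from the other knockout libraries by a median log2 value of 0.57, and those over 8 kb by -0.88. The same values were of the opposite sign in Rfx2-/- replicate 1, at -0.35 and 0.50, and in replicate 3, at -0.20 and 0.37, and were at most 0.11 in size in any wild type library. The list of 15 Sertoli cell genes summed to 1421 to 1768 CPM in wild type and 1454 to 2130.3 CPM in Rfx2-/- testes, with Amh and Kitl past the test and higher. The 8 macrophage genes summed to 103 to 142 and 119 to 186 CPM, and the 8 endothelial genes to 59.1 to 74.6 and 20.2 to 56.5 CPM, with Vwf lower. The 7 peritubular myoid genes summed to 505 to 582 and 382 to 550.4 CPM, with Actg2 lower. The 8 elongating spermatid genes summed to 7729.9 to 16691 CPM in wild type and 6003 to 9316 CPM in Rfx2-/- testes, and 5 of the 8 were lower. The 8 meiotic genes summed to 1118 to 1509.9 CPM in wild type and 1578 to 2963 CPM in Rfx2-/- testes with no overlap, all 8 had a log2 fold change above 0 with a median of 0.61, and Sycp2 and Smc1b passed and were higher. No gene of the round spermatid list (1161 to 1823 and 1305 to 1693 CPM) or the spermatogonia list (154 to 181 and 141 to 208 CPM) passed. Adrenal cortex genes, whose cells share most steroid enzymes, summed to 2.79 to 5.96 and 5.21 to 6.70 CPM, and the defining corticotropin receptor Mc2r had a mean of at most 0.050 CPM in either genotype. Of all genes tested, 3.48% were higher and 7.31% lower at an adjusted p of 0.05, and 53.1% had a log2 fold change above 0. For genes taken singly, the groups did not overlap in 15.9%. The part of these markers in the results below was not tested.

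The comparison of the genotypes asked which transcripts depend on RFX2, and here whether the genes of the androgen pathway are among them. None of the 10 Leydig cell genes passed an adjusted p of 0.05 by the quasi-likelihood test of edgeR, whereas 10.8% of all genes tested did, 3.48% higher and 7.31% lower in Rfx2-/- testes. At an unadjusted p under 0.05 there was 1, Star, against 27.6% of all genes. At the stricter limit of an adjusted p of 0.01 and a 2-fold change there were 0 of 10, against 4.51% of all genes, 0.826% higher and 3.68% lower, and in 0 of 10 did all knockout values lie on 1 side of all wild type values, against 15.9% of all genes. In the fit of all 9 libraries none of the 10 exceeded 1.5-fold, while 19.7% of all genes did. Star, at 1.48-fold, exceeded that limit in several alternative fits, as with total count scaling (log2 0.70) and without Rfx2-/- replicate 4 (log2 0.76). Without Rfx2-/- replicate 1, Hsd3b1 (log2 0.74) and Hsd3b6 (log2 -0.66) exceeded it. The median log2 fold change of Rfx2-/- over wild type was 0.19, with 6 of 10 above 0, against 0.03 and 53.1% above 0 for all genes tested. With the length trend of the libraries removed the median of the 10 was -0.0019, with 5 above 0, against 0.04 for all genes. In a whole testis, fewer Leydig cells and less RNA per cell cannot be told apart, and the scale of each value is set by the RNA of all cells, most of them germ cells.

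**Figure D1:**
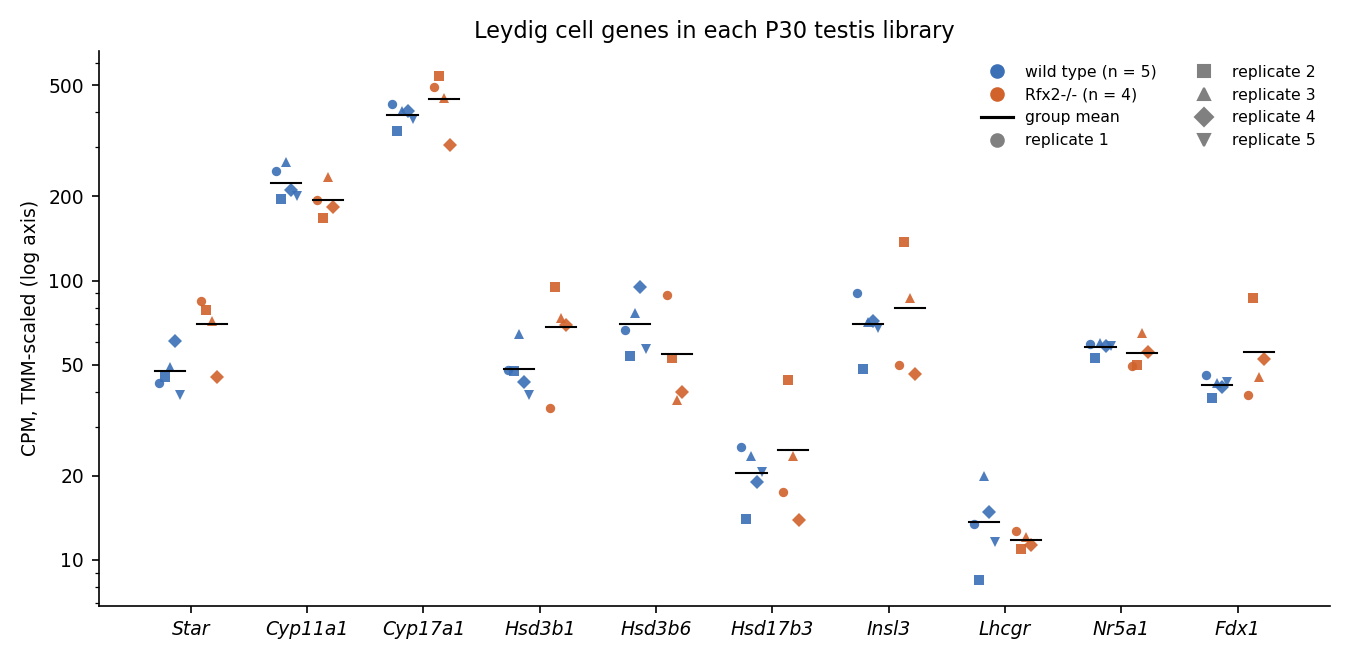
Level of the 10 Leydig cell genes in each library, in CPM on a log axis (TMM-scaled), with wild type (n = 5) in blue, Rfx2-/- (n = 4) in orange, a symbol for each replicate and a bar at each group mean. The groups overlap for every gene, and the levels run from 8.43 CPM for Lhcgr to 540.0 CPM for Cyp17a1.

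The plot of levels by library shows the overlap and the order of the genes by CPM. Since longer transcripts yield more reads, levels of different genes were compared per kb of exon. Over all exon bases Cyp17a1 was highest in wild type testes, at 162 ± 13.6 CPM per kb (SD, n = 5), followed by Insl3 at 111.9 ± 23.9 and Cyp11a1 at 93.9 ± 12.9 CPM per kb. The ranges of neighbours in this group of 3 overlapped. The order of Insl3 can depend on its length, since 404 of its 623 exon bases overlap exons of Jak3 in GENCODE M21 and the authors left out reads over exons of different genes. If all reads over the overlap were left out, its level over the other 219 bases would be 318 CPM per kb, above Cyp17a1. Whether the gene models that the authors counted with hold this overlap was not checked. Hsd3b6 at 38.7 ± 9.13 and Hsd3b1 at 26.1 ± 5.12 CPM per kb came next, below every value of Cyp11a1, and overlapped with each other. Nr5a1 (18.1), Hsd17b3 (14.7), Fdx1 (13.6) and Star (11.5 CPM per kb) each overlapped with the next in order. Lhcgr was lowest, at 2.0 ± 0.63 CPM per kb, and its range lay below that of Star.

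The genes at the head of the pathway, a transcription factor and a receptor, did not pass the test. Nr5a1 (ENSMUSG00000026751, chr2:38692656-38714542) encodes SF-1, which switches on steroidogenic genes in Leydig and adrenal cells and is also present in Sertoli cells. Its level was 59.4, 52.7, 59.9, 58.1 and 58.4 CPM in wild type replicates 1 to 5 and 49.4, 49.7, 64.6 and 55.4 CPM in Rfx2-/- replicates 1 to 4. Wild type replicate 2 was the lowest of its group, and the knockout values lay on both sides of the wild type range. The log2 fold change was -0.08 (SE 0.13, 95% interval -0.35 to 0.20, edgeR adjusted p = 0.727). An antisense gene, Nr5a1os, lies over part of the gene but shares none of its exon bases.

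Lhcgr (ENSMUSG00000024107, chr17:88716481-88791990) encodes the LH receptor, the entry point of the pituitary signal. Its level, in the same order, was 13.4, 8.43, 19.99, 14.8 and 11.6 CPM in wild type and 12.6, 10.9, 12.1 and 11.3 CPM in Rfx2-/- testes. All 4 knockout values fell inside the wild type range, and their coefficient of variation (CV, SD over mean) was 6.65%, against 31.3% in wild type. The log2 fold change was -0.22 (SE 0.22, 95% interval -0.69 to 0.25, adjusted p = 0.529), and it was -0.0020 without wild type replicate 3, the highest library of all.

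Star was the gene that differed most among the 10. Star (ENSMUSG00000031574, chr8:25806555-25815982) encodes the protein that delivers cholesterol to the inner mitochondrial membrane, the acutely regulated step of steroid synthesis. Its level was 42.8, 45.03, 49.0, 60.6 and 39.0 CPM in wild type and 84.3, 78.6, 71.9 and 45.2 CPM in Rfx2-/- testes. In all, 3 knockout libraries lay above all 5 wild type libraries, and Rfx2-/- replicate 4 lay within them. The mean was 47.3 ± 8.26 CPM (SD, n = 5) in wild type and 69.99 ± 17.3 CPM (SD, n = 4) in Rfx2-/- testes. The fitted fold was 1.48 (95% interval 1.11 to 1.98; log2 0.57, SE 0.19), with an unadjusted p of 0.012 and an adjusted p of 0.0821 by edgeR, so Star did not pass over all genes. The adjusted p was 0.0433 with DESeq2 and 0.0188 without Rfx2-/- replicate 4, and between 0.0188 and 0.426 over the 17 alternative settings. Relative to Sertoli cell genes the log2 fold change was 0.32 (adjusted p = 0.426). The Sertoli cell genes themselves had a median log2 fold change of 0.24, and on their scale the median of all genes was -0.21.

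Cyp11a1 (ENSMUSG00000032323, chr9:58006411-58027023), the side chain cleavage enzyme that turns cholesterol into pregnenolone, measured 247, 196, 266, 211 and 201 CPM in wild type and 195, 168, 234 and 183 CPM in Rfx2-/- testes. The levels of 3 knockout libraries lay below all wild type libraries, and Rfx2-/- replicate 3 lay among them. The fitted log2 fold change was -0.20 (SE 0.15, 95% interval -0.53 to 0.13, adjusted p = 0.411). Of its exon bases, 145 overlap those of the long noncoding RNA gene Gm17322.

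Fdx1 (ENSMUSG00000032051, chr9:51943306-51963556) encodes ferredoxin, which passes electrons to the side chain cleavage enzyme and to other mitochondrial enzymes in many cell types. Its level was 45.9, 37.9, 43.0, 41.6 and 43.3 CPM in wild type and 38.8, 86.4, 45.01 and 52.4 CPM in Rfx2-/- testes. The wild type libraries were close together (CV 6.91%), and the knockout group was spread mainly by replicate 2 (CV 38.2% with it and 15.0% without). Its log2 fold change was 0.39 (SE 0.21, 95% interval -0.06 to 0.84, adjusted p = 0.237) and 0.10 without Rfx2-/- replicate 2.

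**Figure D2:**
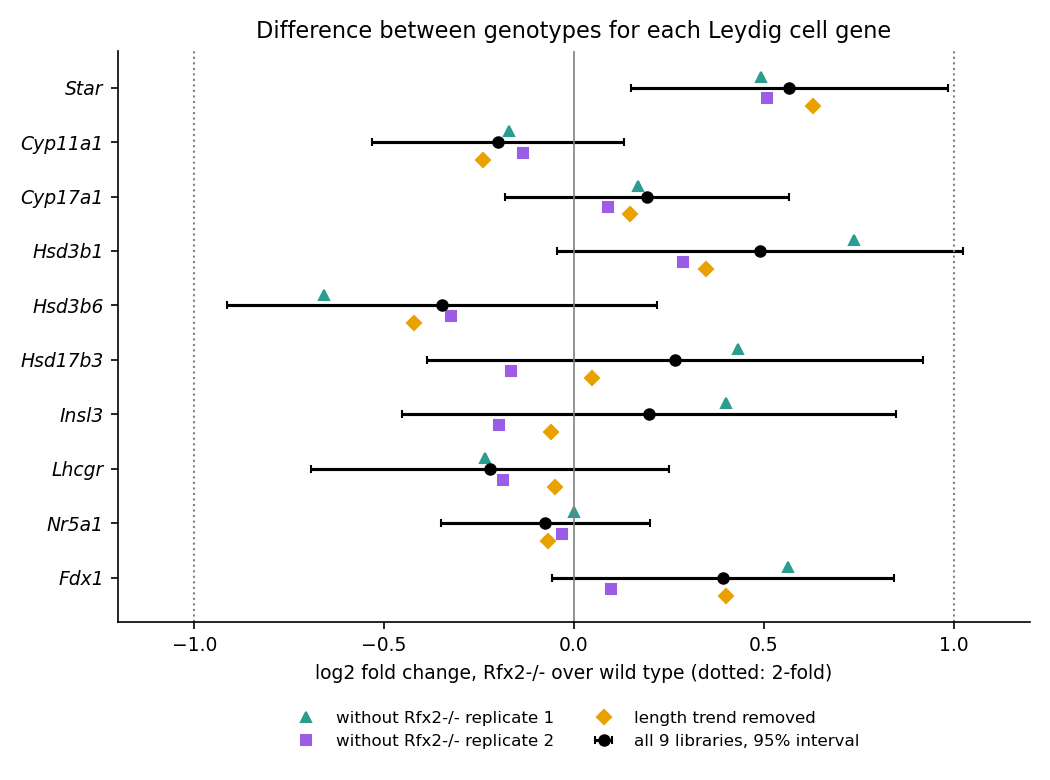
Fitted log2 fold change of Rfx2-/- over wild type for each gene (black points, bars the 95% interval, 5 and 4 libraries), with the values without Rfx2-/- replicate 1 (triangles), without replicate 2 (squares) and with the length trend removed (diamonds). Star is the gene whose interval, 0.15 to 0.98, lies above 0, and Hsd17b3 and Insl3 cross 0 when replicate 2 is left out.

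As the plot of fitted changes shows, the intervals of the other 9 genes included 0. The widest, those of Hsd17b3 and Insl3, reached from about -0.4 to 0.9 on the log2 scale, so changes of either direction within those limits were not excluded by these mice.

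The conversion of pregnenolone to progesterone is carried out by 2 forms of the same enzyme. Hsd3b1 (ENSMUSG00000027871) is expressed in gonads and adrenal glands, and Hsd3b6 (ENSMUSG00000027869) is the form that adult-type Leydig cells acquire during puberty. Hsd3b1 measured 47.7, 47.6, 64.1, 43.5 and 39.0 CPM in wild type and 35.0, 94.6, 73.7 and 69.0 CPM in Rfx2-/- testes. Hsd3b6 measured 66.7, 53.8, 76.5, 94.5 and 57.0 CPM in wild type and 88.8, 52.8, 37.4 and 39.8 CPM in Rfx2-/- testes. Knockout replicates 2, 3 and 4 were above every wild type library for Hsd3b1 and below every one for Hsd3b6, whereas knockout replicate 1 was below every wild type library for Hsd3b1 and within the wild type range for Hsd3b6. With all 9 libraries neither gene passed, with a log2 fold change of 0.49 for Hsd3b1 (SE 0.25, 95% interval -0.04 to 1.02, adjusted p = 0.214) and of -0.35 for Hsd3b6 (SE 0.26, 95% interval -0.91 to 0.22, adjusted p = 0.403).

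Because both genes are read from the same library, their ratio does not depend on how libraries are scaled. The log2 ratio of Hsd3b6 to Hsd3b1 counts was 0.48, 0.18, 0.26, 1.12 and 0.55 in wild type and 1.34, -0.84, -0.98 and -0.79 in Rfx2-/- testes. Hsd3b6 thus exceeded Hsd3b1 in 5 of 5 wild type testes and in 1 of 4 Rfx2-/- testes. The mean log2 ratio was 0.52 ± 0.37 (SD, n = 5) in wild type and -0.32 ± 1.11 (SD, n = 4) in Rfx2-/- testes, a difference of -0.83 that did not pass an exact two-sided permutation test (p = 0.127, adjusted over 3 ratios p = 0.381, where 0.00794 is the smallest p that the 126 splits allow). Without Rfx2-/- replicate 1 the difference was -1.39, with the library left out after its values were seen. The exact permutation p was then 0.0179, the smallest that the remaining libraries allow, since every knockout ratio left lay below every wild type ratio. In the edgeR fit without that library Hsd3b1 passed (log2 0.74, adjusted p = 0.0215) and Hsd3b6 did not (log2 -0.66, adjusted p = 0.0513). Of all genes, 8.86% were called higher and 8.45% lower in that fit. Rfx2-/- replicate 1 was the deepest library and had the opposite length trend to replicate 2. Rfx2-/- replicate 3, with a log2 ratio of -0.98, had a length trend of the same sign as replicate 1. The part of depth or length trend in the ratio was not tested. In replicate 1 the epididymal genes summed to 1.63 CPM. Its sum of the pair, 124 CPM, lay within the range of 96.0 to 141 CPM of the wild type libraries. With the counts of the pair summed as 1 gene the log2 fold change was 0.06 (SE 0.16, adjusted p = 0.848).

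**Figure D3:**
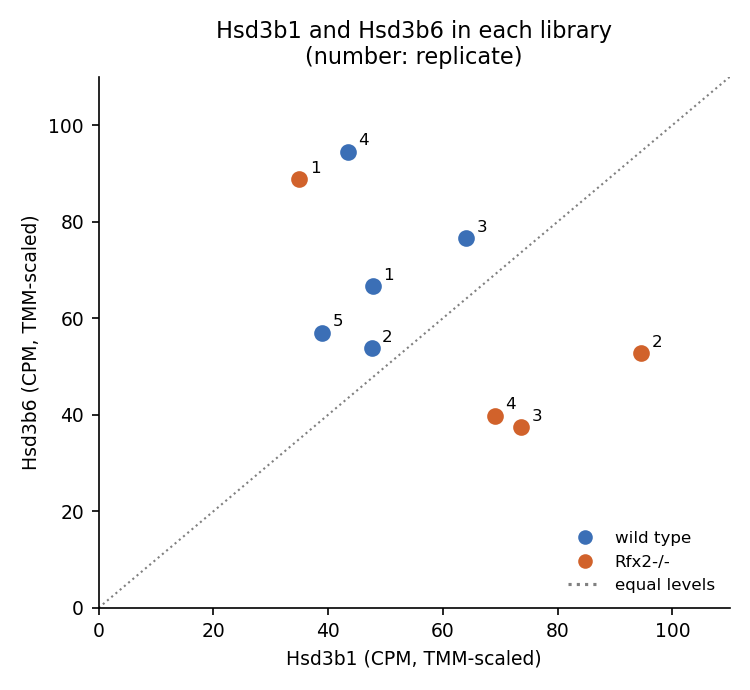
Hsd3b6 against Hsd3b1 in each library, both in CPM (TMM-scaled), for wild type (blue) and Rfx2-/- (orange), with the replicate number beside each point and a dotted line of equal levels. All 5 wild type testes and Rfx2-/- replicate 1 lie above the line, and Rfx2-/- replicates 2 to 4 lie below it.

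In the plot of the pair, the log2 ratios of the 3 libraries under the line fell between -0.98 and -0.79, and the lowest wild type ratio was 0.18.

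The next steps toward testosterone showed no difference beyond the spread between mice. Cyp17a1 (ENSMUSG00000003555, chr19:46667165-46673172) encodes the enzyme that hydroxylates progesterone and cleaves it to androstenedione. Its level was 428, 342, 406, 405 and 378 CPM in wild type and 495, 540.0, 449.8 and 305 CPM in Rfx2-/- testes. Here 3 knockout libraries lay above all wild type libraries and replicate 4 below all of them. The log2 fold change was 0.19 (SE 0.17, 95% interval -0.18 to 0.57, adjusted p = 0.488). It was -0.07 relative to Sertoli cell genes, a scale on which the median of all genes was -0.21.

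Hsd17b3 (ENSMUSG00000033122, chr13:64058266-64089230) encodes the dehydrogenase that reduces androstenedione to testosterone, a step of adult-type Leydig cells that their fetal counterparts lack. Its level was 25.4, 14, 23.5, 19.0 and 20.6 CPM in wild type and 17.5, 44.0, 23.5 and 13.9 CPM in Rfx2-/- testes. Rfx2-/- replicate 2 was the single library above the wild type range. On the log2 scale the fold change was 0.27 (SE 0.30, 95% interval -0.39 to 0.92, adjusted p = 0.592) and -0.17 without that library. The log2 ratio of Hsd17b3 to Cyp17a1, the last step against the one before it, was -4.28 ± 0.23 (SD, n = 5) in wild type and -4.29 ± 0.50 (SD, n = 4) in Rfx2-/- testes (exact permutation p = 0.976).

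Insl3 (ENSMUSG00000079019, chr8:71689214-71690575) encodes a peptide hormone of Leydig cells that guides descent of the testis and is abundant in mature Leydig cells. Its level was 90.0, 48.1, 70.9, 71.6 and 67.8 CPM in wild type and 49.8, 137.1, 86.8 and 46.1 CPM in Rfx2-/- testes. Again Rfx2-/- replicate 2 was above all wild type libraries, while replicates 1 and 4 stood near the lowest wild type value. Its fitted log2 fold change was 0.20 (SE 0.30, 95% interval -0.45 to 0.85, adjusted p = 0.695) and -0.20 without that library. The log2 ratio of Insl3 to Cyp11a1 was -1.70 ± 0.25 (SD, n = 5) in wild type and -1.42 ± 0.79 (SD, n = 4) in Rfx2-/- testes (exact permutation p = 0.563), with -0.29 in Rfx2-/- replicate 2. Because of the overlap with Jak3, the level of Insl3 can be understated in every library.

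**Figure D4:**
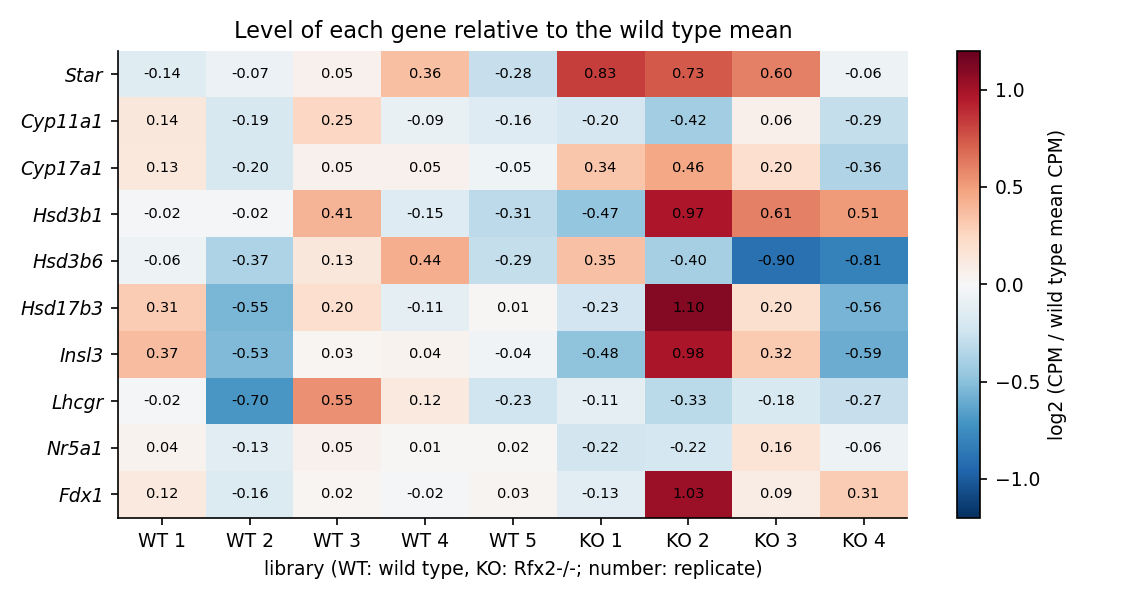
Log2 of the CPM of each gene over its wild type mean, by library (WT wild type, KO Rfx2-/-, with the replicate number), red for higher and blue for lower. Rfx2-/- replicate 2 reaches 1.10 for Hsd17b3, 1.03 for Fdx1 and 0.98 for Insl3, and wild type replicate 2 is below the wild type mean for all 10 genes.

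Seen by library, some mice were high or low for many of the 10 genes at once. Relative to the wild type mean, the median of the 10 genes was 0.08, -0.19, 0.09, 0.02 and -0.10 in wild type and -0.17, 0.60, 0.18 and -0.28 in Rfx2-/- testes on the log2 scale. Wild type replicate 2 had the lowest value of its group for 8 of the 10 genes. Among Rfx2-/- testes, replicate 4 was lowest for 4 genes and replicate 2 highest for 5, which were Cyp17a1, Hsd3b1, Hsd17b3, Insl3 and Fdx1. The CV ranged from 5.01% (Nr5a1) to 31.3% (Lhcgr) among wild type mice and from 6.65% (Lhcgr) to 54.3% (Hsd17b3) among Rfx2-/- mice. Rfx2-/- replicate 2 is the library with epididymal transcripts and higher values of short genes, and the part of either in these levels was not tested. With the length trend removed, the log2 fold change of Hsd17b3 was 0.0473 and that of Insl3 -0.0604. Without that library the median of the 10 genes was -0.08.

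The mean pattern of the 10 genes over the 9 libraries, after the mean of each genotype was removed, was followed most closely by Hsd17b3 (r = 0.86), Insl3 (r = 0.85) and Cyp17a1 (r = 0.78) among themselves, each of which is part of that mean, and least by Hsd3b6 (r = 0.29) and Nr5a1 (r = 0.28). Among 11218 other genes with a mean of at least 100 counts, those most alike included Fubp3 (r = 0.96), Agps (0.92), Prkab1, Nuak2 and Tmem35a (each 0.91), Gltp, Il10rb and Stxbp3 (each 0.90) and Vps41 (0.89). These values describe 9 libraries that share their depth and cell makeup with both measures and were picked as the highest of many.

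Other genes of the pathway were counted by list. Of 25 further steroid enzymes and electron donors in the table, 21 were tested and 0 passed an adjusted p of 0.05, against 10.8% of all genes. Their median log2 fold change was 0.18 against 0.03 for all genes. At an unadjusted p under 0.05 there were 3 higher and 0 lower of the 21, near the 13.9% of all genes that were higher at that limit. Without Rfx2-/- replicate 1, 3 of the 21 passed and were higher, Cyb5a, the cofactor of the lyase step, Tspo, a mitochondrial membrane protein, and Akr1c14, in a fit where 8.86% of all genes were called higher. With total count scaling 1 passed, Stard3, and was higher, in a fit where 7.54% of all genes were called higher. Of 10 other adult Leydig cell markers tested, 0 passed, with a median of 0.19. Fabp3 and Akr1c14 among them passed and were higher without Rfx2-/- replicate 1, against the same 8.86% of all genes, and the median was then 0.37. Akr1c14 and other genes are in both lists, and the marker list also shares genes with the lists below, so these lists are not independent. Of 4 fetal Leydig cell genes tested 1 passed and was lower, against 7.31% of all genes. It was Crhr1, the receptor of corticotropin releasing hormone, which fell from 1.35 ± 0.56 to 0.101 ± 0.13 CPM (SD, n = 5 and 4), near the floor of 3 counts. The filter on low counts removed Crhr1 when wild type replicate 3 or 5 was left out.

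The genes that supply cholesterol, by uptake, by release from stored esters or by synthesis, were also counted. Of 33 tested, 1 was lower and 0 were higher, with a median of -0.06. The share lower was 3.03% against 7.31% of all genes tested, and 3.48% of all genes were higher. The lower gene was Lipe, hormone-sensitive lipase, which frees cholesterol from its esters and is also made in haploid germ cells. It measured 372, 395, 237, 379.6 and 463 CPM in wild type and 249, 99.2, 234 and 172 CPM in Rfx2-/- testes, so that wild type replicate 3 overlapped with the knockout libraries. The log2 fold change was -0.97 (SE 0.27, edgeR adjusted p = 0.0368), and Lipe did not pass when wild type replicate 1, 2, 4 or 5 or Rfx2-/- replicate 4 was left out. Without Rfx2-/- replicate 1 there were 4 higher genes as well, Npc2, Mvk, Cyp51 and Msmo1, against 8.86% of all genes called higher in that fit. Cyp51, Msmo1 and Sc5d were called higher with DESeq2 and with total counts, and Msmo1 and Sc5d with the length trend removed. In these fits 6.17%, 7.54% and 4.97% of all genes were called higher, in that order.

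Among genes of LH and cAMP signalling and other genes linked to Leydig cells or their signals, 5 of 35 were lower and 0 higher. The share lower was 14.3% against 7.31% of all genes tested, and the median was -0.10. The list was made with earlier results of these data known, so nothing is concluded from its share. Without Rfx2-/- replicate 1, Nr0b1 and Fhl2 passed and were higher, against the same 8.86% of all genes. With total counts Fhl2 also passed and was higher, against 7.54% of all genes. Rxfp2, the receptor of the INSL3 hormone, fell from 11.3 ± 1.97 CPM (SD, n = 5) to 2.69 ± 0.63 CPM (SD, n = 4), with no overlap (log2 -2.05, SE 0.21, adjusted p = 3.73e-05). Pdgfa, a growth factor that tubule cells send to Leydig cell precursors, fell from 15.5 ± 1.29 to 3.89 ± 2.04 CPM, also with no overlap (log2 -2.0, SE 0.28, adjusted p = 0.000442). Rxfp2 is also made by germ cells and Pdgfa by cells of the tubules. Nr4a1, an orphan nuclear receptor that LH induces, fell from 47.9 ± 12.7 to 19.8 ± 4.70 CPM (log2 -1.27, SE 0.24, adjusted p = 0.0039). Its wild type replicate 3, at 25.8 CPM, lay below Rfx2-/- replicate 3, at 26.8 CPM.

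The other pair of lower genes act on cAMP and its kinase in many cells. Prkar2a, a regulatory subunit of protein kinase A that is abundant in sperm, fell from 172.6 ± 42.7 to 81.1 ± 19.0 CPM (log2 -1.09, SE 0.22, adjusted p = 0.00762), with wild type replicate 3 again below the highest knockout library. Pde4b, a cAMP phosphodiesterase, fell from 19.0 ± 1.93 to 12.9 ± 1.16 CPM with no overlap (log2 -0.56, SE 0.14, adjusted p = 0.0232). Pde4b did not pass with total count scaling, with the length trend removed, or without wild type replicate 3, 4 or 5 or Rfx2-/- replicate 3 or 4. Prkar2a, Nr4a1, Pdgfa and Rxfp2 passed and were lower in all 17 alternative settings. Wild type replicate 3, in which Lipe, Prkar2a and Nr4a1 were lowest of their group, also had the lowest summed level of elongating spermatid genes among wild type mice, 7729.9 CPM against 12034 CPM or more, and the part of this in the results was not tested.

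**Figure D5:**
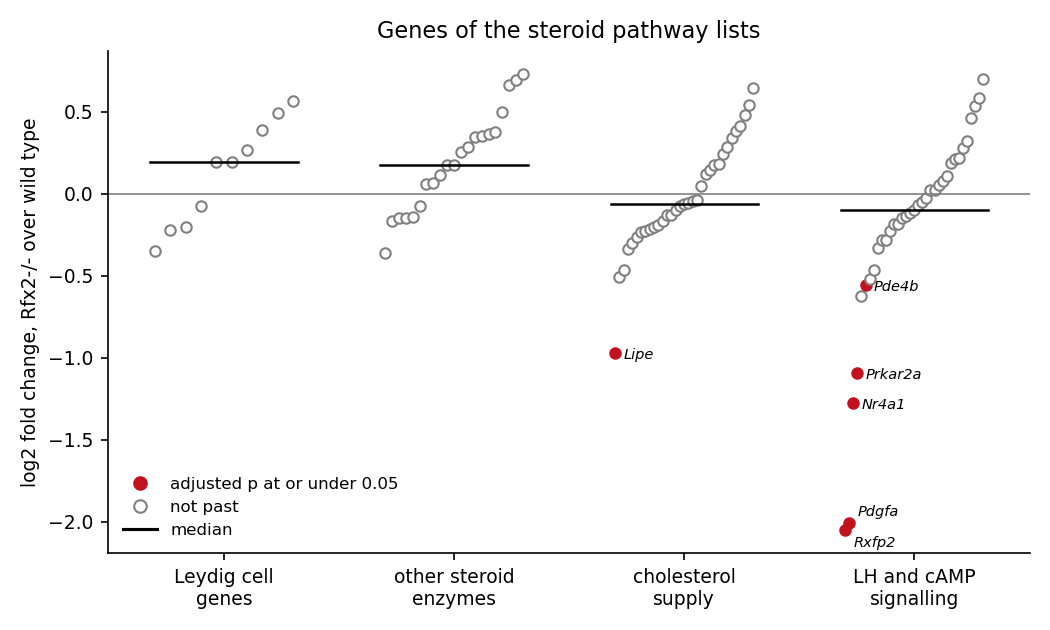
Fitted log2 fold change of Rfx2-/- over wild type for the tested genes of 4 lists, the 10 Leydig cell genes, 21 other steroid enzymes, 33 genes of cholesterol supply and 35 of LH and cAMP signalling, with a bar at each median. Filled red points passed an adjusted p of 0.05, and all 6 of these lie below 0, in the last 2 lists.

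The plot of the pathway lists sets the 10 genes beside the rest. None of the 10 lies outside the range of -0.35 to 0.57, while Rxfp2 and Pdgfa lie at or beyond -2.0.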

How the data were processed

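The deposited table holds raw counts of reads per gene, made by the authors from libraries of whole testis RNA and not normalized. By their methods and processing notes (CASAVA 1.8.2, STAR 2.4, featureCounts 1.4.6, GRCm38), reads with more than 1 position and reads over exons of different genes were left out. This can lower the counts of Hsd3b1, Hsd3b6 and Insl3, by an amount that was not measured. Another read length and aligner are also named, and use of strand is not given in the sources used here.

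Symbols and positions came from GENCODE M21 (96.6% of IDs). The test was the quasi-likelihood test in edgeR 4.0.16 (R 4.3.3; TMM, filterByExpr, robust), with genotype as the factor and Benjamini-Hochberg adjustment over 15613 genes. DESeq2 1.42.0 served as an alternative, and in another the length trend was removed in edgeR with a smooth curve (lowess) for each library. Ratios were log2 of counts plus 0.5. Chi-square per gene between libraries of a genotype was 4.32 or more, so no library was a copy. Floors are 3 counts per library.

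The genes and lists were chosen with earlier results of these data known. Genes named beyond the 10 were those of the lists past an adjusted p of 0.05, the 10 most alike in pattern, of which 1 is not reported here, and Rfx2. Genes and markers named for a left-out library were chosen after their values were seen. Mice were grouped by labelled genotype, as 1 library per mouse, and replicate numbers follow the order of deposition and pair no mice.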

Additional observations from a re-analysis of the deposited data

Results flagged for a closer look

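Groups of 4 or 5 libraries were searched for a value far from the rest of its group, by the gap to the nearest library over the range of the group. Of 46 groups examined 5 had such a value, and chance gives about 1 in 20, here 2.3.

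In Rfx2-/- replicate 1 the log2 ratio of Hsd3b6 to Hsd3b1 was 1.342, while the nearest knockout library was at -0.794. The Nr5a1 level of wild type replicate 2 was 52.69 CPM, with the nearest wild type library at 58.13 CPM. The summed level of the epididymal genes was 267.6 CPM in Rfx2-/- replicate 2, where the nearest library of the group was at 1.63 CPM. The same sum was 4.318 CPM in wild type replicate 3, against 1.38 CPM in the nearest library. The summed level of the Sertoli cell genes in that library was 1768 CPM, with the nearest wild type library at 1476 CPM.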

How the results depend on the processing

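No paired analysis was possible because the mice of the 2 genotypes share no replicate numbers in the labels. Total count scaling moved the median of all genes from 0.03 to 0.16 on the log2 scale and scaling to Sertoli cell genes moved it to -0.21. The median of the 10 genes became 0.33 and -0.10, with 7 and 3 above 0. Calls at an adjusted p of 0.05 were 1142 lower and 544 higher, 959 and 1178 with total counts, 1285 and 146 relative to Sertoli cell genes, and 1328 and 1393 without Rfx2-/- replicate 1. With few mice and 1 library per mouse, a gene whose interval includes 0 can still differ between genotypes by an amount within that interval.

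The number of the 10 genes past an adjusted p of 0.05 was 1 with DESeq2, total counts or the length trend removed, Star each time. In these fits 6.17%, 7.54% and 4.97% of all genes were called higher, in that order, and 9.61%, 6.14% and 9.56% lower. The number was 2 with Rfx2-/- replicates 1 and 2 left out together, an alternative chosen after seeing the data. These were Hsd3b1, higher (edgeR adjusted p = 0.0434), and Hsd3b6, lower (edgeR adjusted p = 0.0186). Of all genes, 4.26% were called higher and 8.8% lower in that fit. Leaving out single libraries gave 0 to 1 of the 10, 1126 to 2721 of all genes (1686 with all libraries), and 4 to 15 genes of the 3 pathway lists (6 with all libraries, 10 with total counts). In the same way, the difference in log2 ratio ran from -1.39 to -0.61 for Hsd3b6 over Hsd3b1, from -0.23 to 0.17 for Hsd17b3 over Cyp17a1, and from -0.0934 to 0.47 for Insl3 over Cyp11a1. The cause was not tested.

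Signs turned in genes that did not pass. Relative to Sertoli cell genes the log2 fold change was -0.0674 for Cyp17a1, -0.0503 for Hsd17b3 and -0.14 for Insl3. Nr5a1 was at 0.0564 with total counts, and Insl3 at -0.0604 with the length trend removed. Without Rfx2-/- replicates 1 and 2 together the values were -0.0527 for Cyp17a1, -0.13 for Hsd17b3, -0.0676 for Insl3 and 0.0577 for Nr5a1. With single libraries left out, Hsd17b3 ran from -0.17 to 0.49, Insl3 from -0.20 to 0.42 and Nr5a1 from -0.13 to 0.0011. Star, Cyp11a1, Hsd3b1, Hsd3b6, Lhcgr and Fdx1 kept their sign in every alternative run.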
